A study of Homo sapiens with 4 samples.

Results

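The genes described here encode nuclear subunits of the mitochondrial respiratory chain and of ATP synthase, measured in A549, an established cell line from a human lung adenocarcinoma. Members were chosen by symbol alone, as genes with a probe of a single symbol that begins with NDUFA, NDUFB, NDUFC, NDUFS, NDUFV, UQCR, COX4 to COX8 or ATP5, or that is SDHB, SDHC, SDHD or CYC1. This gave 83 genes of 18255 named genes, read by 119 probes, and each gene was represented by its brightest probe. Complex I held 36 genes, complex II 3, complex III 7, complex IV 18 and complex V, the ATP synthase, 19. SDHA was listed in the rule but is not analysed here, because its probes carried several symbols.

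The labels give total RNA at 48 h from cells that received siRNA, as siCtrl (the control) or siPML (against PML), or a plasmid, as Vec (the empty vector, called vector here) or WDR4 oe (WDR4 overexpression, called WDR4). Each group was 1 array, so no difference was tested and the spread between cultures is unknown. Knockdown of PML was compared with siCtrl, and WDR4 overexpression with vector. The knockdown and overexpression checks moved as labelled on the brightest probe. PML read 506 on siPML against 853 on siCtrl, and WDR4 read 4708 on the WDR4 array against 1140 on vector, although the dimmer WDR4 probe read 890 against 1191. Of 5 epithelial markers, 4 lay above the filter described below and KRT8 did not, while 0 of 3 leukocyte, 0 of 3 endothelial, 0 of 4 muscle and 1 of 4 fibroblast markers (COL1A1) did. Median probe intensity was 106 to 134 over the 4 arrays.

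Complexes I to IV pass electrons from NADH and succinate to oxygen, and complexes I, III and IV pump protons across the inner mitochondrial membrane. Complex V lets the protons flow back and makes ATP. Complex I has a matrix arm, which binds NADH and reduces ubiquinone, and a membrane arm that pumps protons. Nuclear chain genes are known targets of the transcription factors NRF1, GABPA and YY1, and tumour lines such as A549 can draw on both glycolysis and this chain.

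The promoters of 4 members are shown as examples among the genes with differences reported below. NDUFS8, NDUFA9 and UQCRC1 were lower on siPML than on siCtrl, and COX5A was higher. Other members with large log2 differences in that comparison, such as NDUFB10 (-0.96) and NDUFA5 (0.83), are not shown. The sequences are from RefSeq on GRCh38.p14 and cover the 250 bases before the annotated start, written 5′ to 3′ on the strand of the gene. Capitals mark matches on either strand to GCGCA followed by any base and GCGC (NRF1), CCGGAAG (ETS factors, GABPA among them), AAGATGGC (YY1), CCAAT (NF-Y) and the hypoxia response cores ACGTG and GCGTG.
NDUFS8, chr11:68030431-68030680, plus strand: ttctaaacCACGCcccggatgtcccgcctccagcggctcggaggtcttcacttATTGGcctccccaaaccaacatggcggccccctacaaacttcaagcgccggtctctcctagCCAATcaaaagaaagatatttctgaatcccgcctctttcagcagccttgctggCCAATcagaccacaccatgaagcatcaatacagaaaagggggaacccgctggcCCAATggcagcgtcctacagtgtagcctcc
NDUFA9, chr12:4648864-4649113, plus strand: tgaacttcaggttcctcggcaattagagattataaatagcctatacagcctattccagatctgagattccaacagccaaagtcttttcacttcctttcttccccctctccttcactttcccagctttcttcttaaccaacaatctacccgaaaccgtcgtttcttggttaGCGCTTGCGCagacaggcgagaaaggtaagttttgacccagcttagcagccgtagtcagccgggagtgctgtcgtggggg
UQCRC1, chr3:48609647-48609896, minus strand: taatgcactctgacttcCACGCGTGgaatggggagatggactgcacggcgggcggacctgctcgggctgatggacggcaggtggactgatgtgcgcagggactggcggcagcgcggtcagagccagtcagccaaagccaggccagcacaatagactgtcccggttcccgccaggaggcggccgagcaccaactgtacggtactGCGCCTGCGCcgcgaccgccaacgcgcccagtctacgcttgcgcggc
COX5A, chr15:74938074-74938323, minus strand: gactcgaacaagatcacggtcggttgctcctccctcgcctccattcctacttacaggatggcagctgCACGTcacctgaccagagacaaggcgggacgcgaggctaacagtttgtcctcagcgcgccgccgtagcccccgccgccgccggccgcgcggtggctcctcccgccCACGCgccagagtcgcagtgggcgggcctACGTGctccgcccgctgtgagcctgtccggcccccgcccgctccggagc

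NDUFA9 held an NRF1 match that begins 80 bases before the start, and UQCRC1 held one at 47 bases. NDUFS8 held 4 NF-Y matches and no NRF1 match, and COX5A held 3 matches to the hypoxia cores and none to the other motifs. In UQCRC1, the core matches at 233 and 230 bases overlap. The stretches shown held no match to CCGGAAG or AAGATGGC, while NDUFA9 and UQCRC1 each held a YY1 match in the 50 bases after the start, which are not shown. NDUFB10 and NDUFA5 held no NRF1 or YY1 match in their windows. These are matches of letters and not measured sites.

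Promoter windows of 300 bases, with 50 bases after each start, were at hand for 68 of the 83 members and for 27305 genes in all. Those 27305 genes were not limited to the 18255 named on the arrays or to genes of like level. Shares among such genes were not counted. A match to the NRF1 motif stood in a window of 15 of the 68 members (22.1%), against 6.98% of all genes. The ETS motif was found in 19 members (27.9%, against 12.2%), and the YY1 motif in 12 members (17.6%, against 3.52%). Matches to CCAAT stood in 36.8% of members and 39.7% of all genes, and those to the hypoxia cores in 64.7% and 52.4%. In complex IV, 1 of 15 genes held an NRF1 match and 0 a YY1 match, and in complex I 6 and 7 of 32 did. The complex IV genes here include several, such as COX6A2 and COX8C, that did not pass the filter described below. The NRF1 match of complex IV was in COX8C.

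To describe differences, 1 was added to each intensity and log2 was taken. A gene was kept if its mean log2 value over the 4 arrays was at least 7.81, the median for named genes, and 9128 genes were. Of the 83 members, 73 were kept (88.0%). Complex I kept 35, complex II 3, complex III 7, complex IV 10 and complex V 18. The lowest member kept was ATP5F1A, whose mean was the filter value itself, and the next member below it was COX4I2 at 6.22.

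As a measure of how well 1 probe is known, the brightest pair of probes of each gene was compared wherever both passed the filter. For siPML minus siCtrl, the log2 differences of such pairs lay a median of 0.26 apart over 1745 genes and 0.28 apart over 23 members. For WDR4 minus vector the gaps were 0.21 and 0.19, and for vector minus siCtrl 0.22 and 0.21. In the siPML comparison 9 of the 23 members had probes of opposite sign, as had 530 of the 1745 genes. A single difference smaller than the median gap was therefore within the disagreement of probes, and a larger one can be too. For siPML minus siCtrl the 90th percentile of the gap was 0.78 over the 1745 genes and 0.57 over the 23 members. For WDR4 minus vector it was 0.58 and 0.41, and for vector minus siCtrl 0.77 and 0.66. The error between cultures comes on top of this disagreement.

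**Figure D1:**
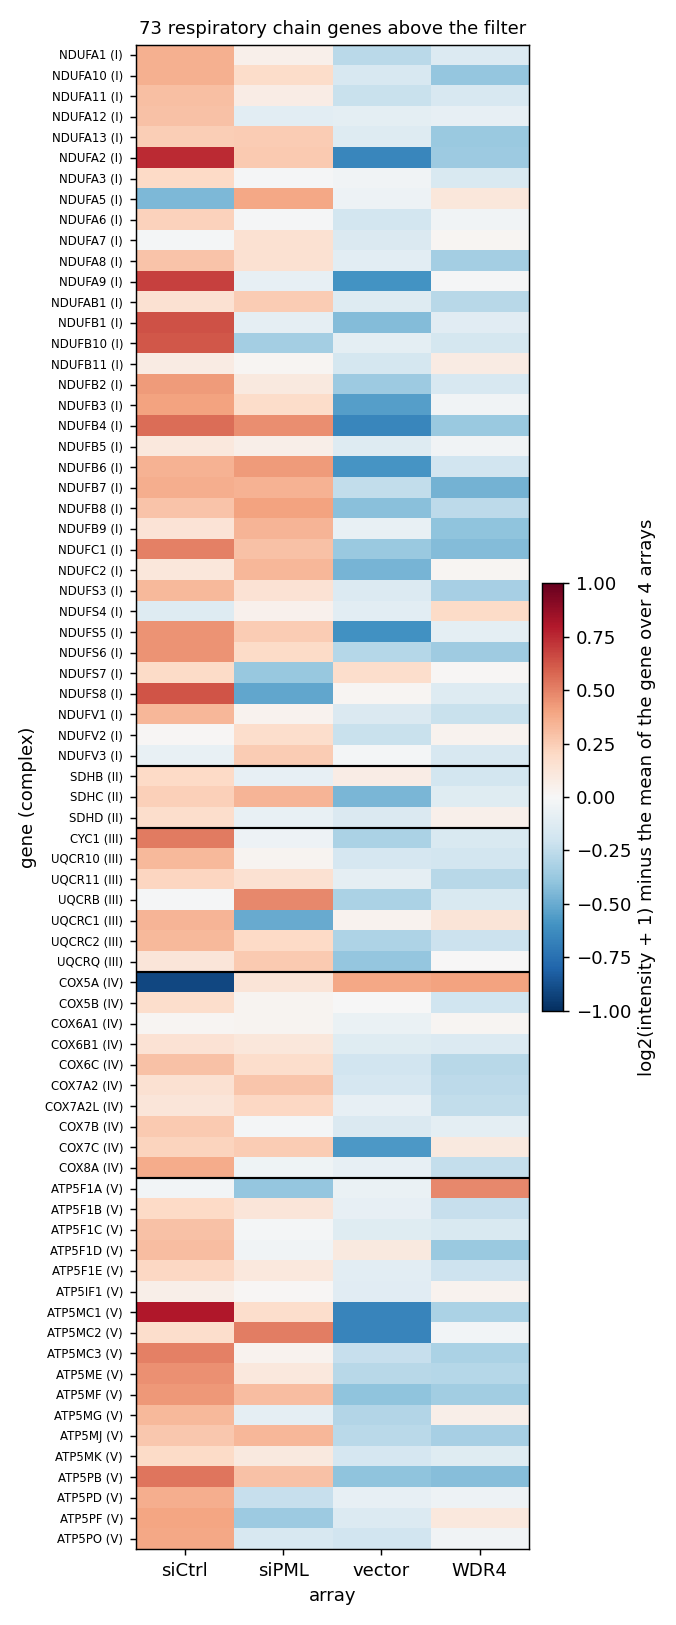
Heat map of the 73 members above the filter (rows, by complex) on the 4 arrays (columns); colour is log2(intensity + 1) minus the mean of the gene over the arrays. The siCtrl column is the highest for 50 of the 73 genes (all genes kept, 21.9%), and the vector column is the highest for 0 (all genes kept, 30.9%).

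The most regular feature of the chain genes was their order over the arrays. They read highest on siCtrl and lowest on the plasmid arrays. The siCtrl array was the highest for 50 of the 73 kept members (68.5%, against 21.9% of all genes kept). Highest was siPML for 19 (all genes, 25.6%), WDR4 for 4 (all genes, 21.6%) and vector for 0 (all genes, 30.9%). The lowest array was vector for 33 members (all genes, 18.7%), WDR4 for 29 (all genes, 20.5%), siPML for 8 (all genes, 31.7%) and siCtrl for 3 (all genes, 29.2%). Vector and WDR4 both read below siCtrl and siPML for 51 of the 73 members (69.9%, against 23.6% of all genes kept). Both read above them for 1 member, COX5A, against 35.2% of all genes kept.

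Between the control arrays, 69 of the 73 kept members were lower on vector than on siCtrl, where 42.8% of all genes kept were, and 78 of the 83 were lower when no filter was applied. The median log2 difference was -0.47, against 0.099 for all genes kept. Genes that build or feed the chain, described below, were also mostly lower on vector. At least 1.5-fold lower were 26 members (all genes, 10.6%), and at least 1.5-fold higher was 1 (all genes, 22.3%). At least 2-fold lower were 6 members (all genes, 3.14%), and at least 2-fold higher was COX5A alone (all genes, 9.43%). After removal of the running median of all genes along level, the members' median was -0.37. With quantile normalization the members lay 0.37 below the median of all genes, and without it 0.57 below. The pair differs in the kind of transfection and in culture, which cannot be told apart. PML moved with it, at 3840 on vector against 853 on siCtrl, and its part in the chain genes' levels was not tested.

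**Figure D2:**
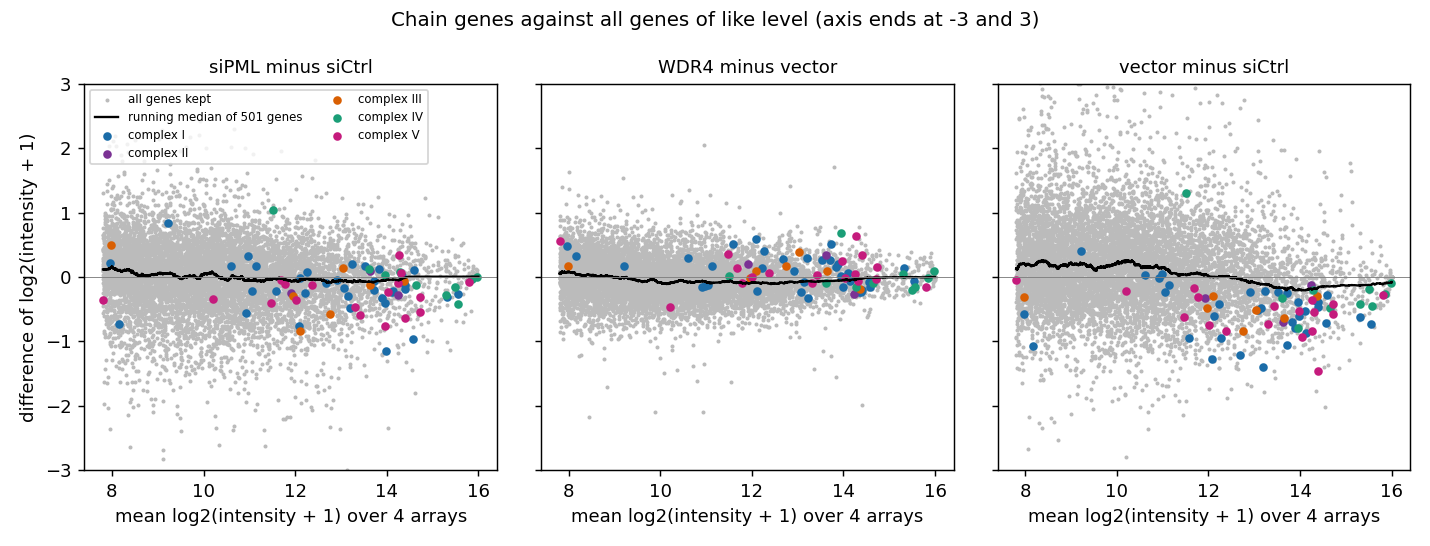
Log2 difference of every gene kept (grey) against its mean level over the arrays, with the 73 members coloured by complex and the running median along level in black, for each comparison. On vector minus siCtrl the members lie mostly under the black line, while on WDR4 minus vector they lie on either side of it.

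Every complex shared the lower level on vector. The medians of vector minus siCtrl were -0.52 for complex I, -0.32 for complex II, -0.49 for complex III, -0.29 for complex IV and -0.54 for complex V, each on the log2 scale. All 18 kept members of complex V and all 7 of complex III were below 0. In complex V, the F1 head that makes ATP had a median of -0.28 over 5 genes, set by ATP5F1B, whose probe was at the limit of the scale on siCtrl and whose second probe gave -0.44. The stalk and membrane part had a median of -0.68 over 12 genes. In complex I, the membrane arm and remaining accessory genes had a median of -0.61 over 21 genes, all below 0. The module that binds NADH had a median of -0.39 over 7 genes and the module that reduces ubiquinone one of -0.42 over 7.

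ATP5MC1, which encodes the c subunit of the proton-driven ring, read 37601 (siCtrl), 24302 (siPML), 13675 (vector) and 17300 (WDR4). Both plasmid arrays lay below both siRNA arrays, and each of its probes differed by -1.46 between vector and siCtrl. NDUFA2, an accessory subunit of the NADH-binding module, read 15781, 11293, 6001 and 7332 in the same order of arrays. Its probes differed by -1.39 and -1.02 between vector and siCtrl. NDUFB3, of the membrane arm, read 4064, 3491, 2096 and 2991, and its probes differed by -0.96 and -1.16. For ATP5MJ, a small membrane subunit, the probes went the same way but apart in size, at -0.54 and -1.51. NDUFS6, of the NADH-binding module, was at the limit of the scale on siCtrl and read 39342 on vector, at least 1.67-fold lower. The kept members not lower on vector were COX5A, NDUFA5, NDUFS4 and NDUFV3.

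The comparison of siPML with siCtrl asks how the chain genes stood after PML knockdown. Most members read lower on siPML by small amounts, some subunits, NDUFS8 and UQCRC1 among them, read clearly lower, and COX5A and NDUFA5 read higher. Of the 73 kept members, 52 were below 0, where 48.9% of all genes kept were, and 54 of the 83 were without a filter. The median was -0.17, against 0.0085 for all genes kept. At least 1.5-fold lower were 8 of the 73 members (all genes, 12.9%), near the share of all genes. At least 1.5-fold higher were 2 (all genes, 10.1%), a smaller share than that of all genes. At least 2-fold lower was 1 member (all genes, 4.27%), and at least 2-fold higher was 1 (all genes, 2.3%). Against the vector array in place of siCtrl the direction turned, with a median of 0.29 (all genes, -0.11). Below 0 were 11 members (all genes, 56.3%), and at least 1.5-fold higher were 18 (all genes, 1141 of 9128).

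**Figure D3:**
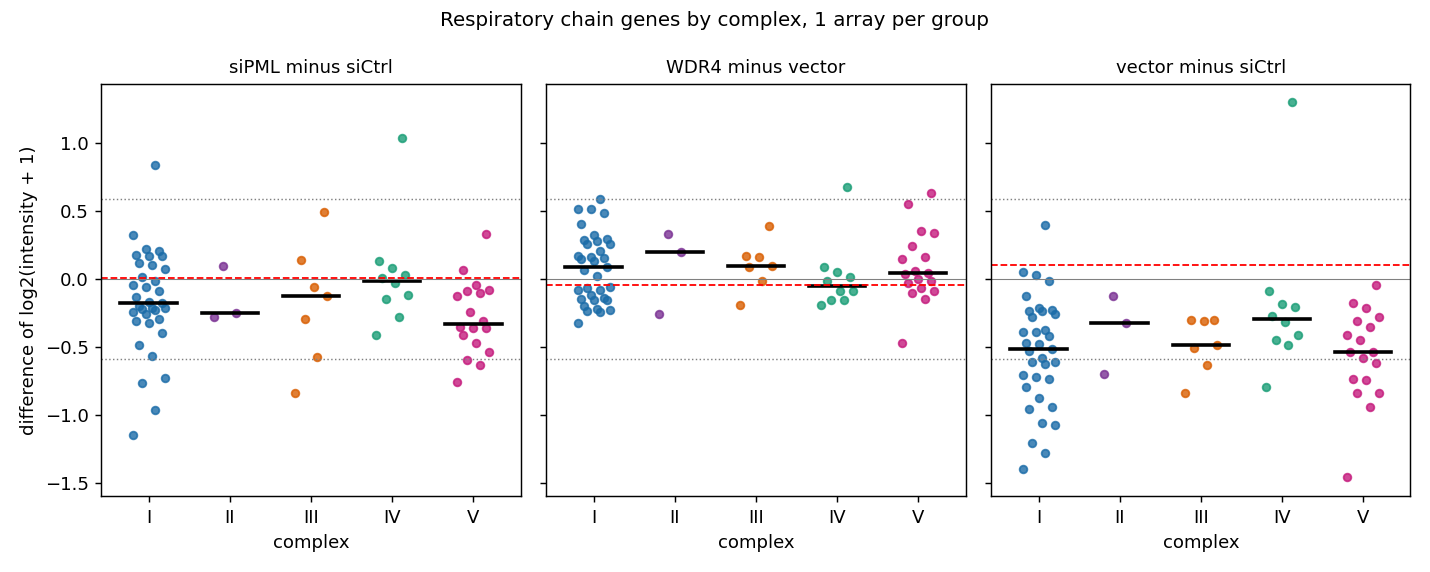
Log2 difference of each kept member (points) by complex, with the median of the complex as a bar, the median of all genes kept as a dashed line and 1.5-fold as dotted lines. In siPML minus siCtrl the bar of complex V lies lowest, at -0.33, and that of complex IV at -0.012.

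Complex V had the lowest median of siPML minus siCtrl, at -0.33, with 16 of 18 kept members below 0. Complex I had a median of -0.18 with 24 of 35 below 0, complex II one of -0.25 with 2 of 3, complex III one of -0.13 with 5 of 7 and complex IV one of -0.012 with 5 of 10. The standard deviation between members was 0.38 in complex I and 0.27 in complex V, so the complexes overlapped widely. Whether they differ from each other was not tested.

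Within complex I, NDUFS8, a core iron-sulfur subunit on the path of electrons to ubiquinone, stood lowest. It read 25065 on siCtrl and 11320 on siPML, with 16390 on vector and 14783 on WDR4. The siPML array was the lowest of the 4, the log2 difference was -1.15, and the second probe gave -1.28. The siPML array was also below vector, by -0.53, although these arrays also differ in the kind of transfection.

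NDUFB10, an accessory subunit of the membrane arm, read 37321 (siCtrl), 19157 (siPML), 22689 (vector) and 21483 (WDR4). Its difference from siCtrl was -0.96, and here siCtrl was high while the other arrays lay close together. NDUFA9, an accessory subunit next to the ubiquinone site, read 6976, 4108, 2873 and 4312 in the same order, a difference of -0.76 from siCtrl. Against vector it turned, to 0.52. NDUFB1, a small membrane-arm subunit, read 445, 268, 211 and 264 (-0.73), and it also turned against vector, to 0.34. Of the 5 core subunits kept, 4 were below 0, among them NDUFS7 (-0.57), which binds the last iron-sulfur cluster of complex I, and NDUFV1 (-0.29), which binds NADH and FMN. NDUFV2, its partner, differed by 0.17.

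NDUFA5, an accessory subunit of the ubiquinone module, was the complex I member at least 1.5-fold higher on siPML, where 11 of 35 kept members were above 0. It read 435 (siCtrl), 776 (siPML), 573 (vector) and 644 (WDR4), a difference of 0.83. The siCtrl array was the lowest and the difference from vector was 0.44. For NDUFV3, of the NADH-binding module, the probes disagreed, at 0.32 and -0.97, and for NDUFC1, of the membrane arm, at -0.21 and 0.38.

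**Figure D4:**
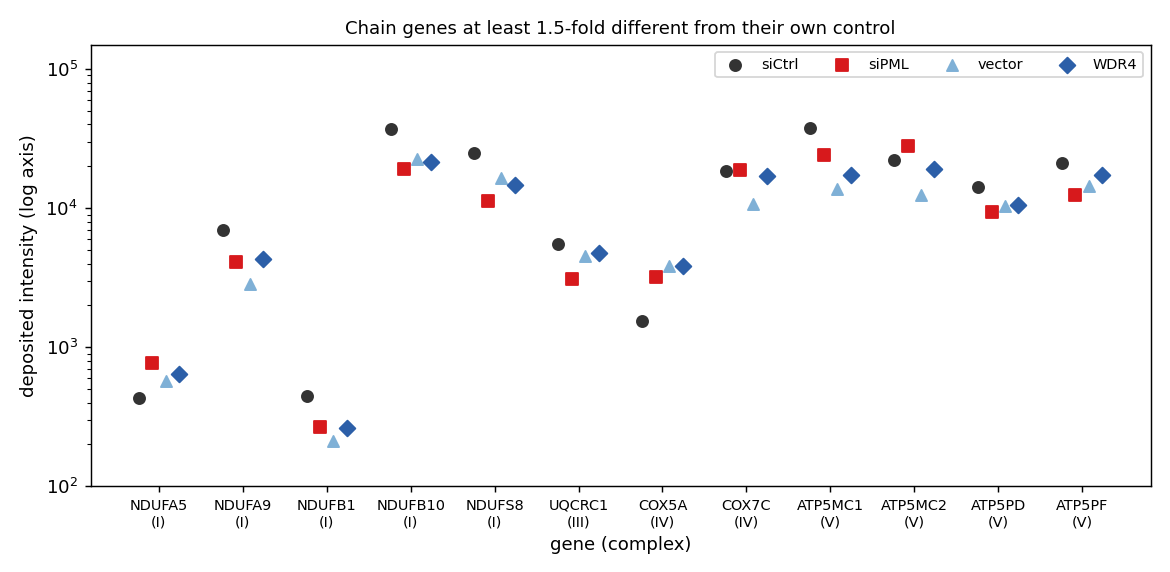
Deposited intensity on a log axis of the 12 kept members that differed by 1.5-fold or more from siCtrl (siPML) or vector (WDR4), with 1 point for each array. For COX5A the siCtrl point, at 1551, lies below the other 3 arrays, while for NDUFS8, NDUFB10, UQCRC1, ATP5PD and ATP5PF the siPML point is the lowest.

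No member of complex II, which oxidises succinate, differed by 1.5-fold on siPML or WDR4 from its control. With 3 genes this count says little. Of all genes kept, 12.9% were that much lower and 10.1% higher on siPML, and 3.34% and 3.09% on WDR4. SDHB, its iron-sulfur subunit, read 22132 (siCtrl), 18257 (siPML), 20320 (vector) and 16977 (WDR4) (-0.28 on siPML). The membrane anchor SDHD read 4357, 3662, 3483 and 3990 (-0.25). SDHC, the other anchor, read 14942, 15995, 9222 and 11618, a difference of 0.098 on siPML, and its second probe gave 0.27. For SDHC the plasmid arrays lay well below the siRNA arrays, with both probes lower on vector than on siCtrl, by -0.70 and -0.64.

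In complex III, UQCRC1, a core protein on the matrix side, read 5557 (siCtrl), 3101 (siPML), 4505 (vector) and 4799 (WDR4). The siPML array was the lowest, at -0.84 from siCtrl and -0.54 from vector. CYC1, the cytochrome that hands electrons to cytochrome c, read 9904, 6662, 5551 and 6219, a difference of -0.57 on siPML, and its level on the plasmid arrays was lower still. UQCRC2, the partner of UQCRC1, differed by -0.13. UQCRB, a small subunit, read near the filter at 250 on siCtrl and 351 on siPML (0.49), and its other probe was dimmer and differed by -0.093. UQCR10 gave -0.29 and -0.78 on its probes.

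In complex IV, which reduces oxygen, COX5A stood alone. It read 1551 (siCtrl), 3188 (siPML), 3813 (vector) and 3856 (WDR4), so siCtrl was low and the other 3 arrays were close. The difference of siPML from siCtrl was 1.04, and that from vector was -0.26. COX5A is a structural nuclear subunit and has 1 probe here, so no second probe could be set beside it. COX8A read 62506, 46967, 45685 and 41039 (-0.41 on siPML), COX7B differed by -0.28, COX5B by -0.15 with 0.28 on its second probe, and COX7A2 by 0.13. COX6A1 was at the limit of the scale on siCtrl, siPML and WDR4, so no fold is given among these. COX6B1 was at the limit on siCtrl, and its second probe, within the scale, read 20549, 14450, 11423 and 12889, lower by -0.51 on siPML and -0.85 on vector than on siCtrl.

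Isoforms of complex IV that are known from muscle, testis or hypoxic cells read low on all arrays and did not pass the filter. The muscle forms COX6A2 and COX7A1 read at most 21.1 and 21.0, and the testis form COX8C 2.51 to 5.43. COX4I2, a form expressed in lung and in hypoxia, read 66.1 on vector to 91.5 on WDR4. COX6B2, another testis form, read 60.0 to 81.5. The ubiquitous COX7A2 and the related COX7A2L, which acts in joining complexes III and IV, passed the filter and read 10499 to 15246 and 16866 to 22982. NDUFA4, now placed in complex IV, read 26.7 to 89.9 on its better probe, and the hypoxia-induced NDUFA4L2 19.9 (siCtrl), 25.4 (siPML), 27.5 (vector) and 40.5 (WDR4). At these levels a difference has little meaning. NDUFS1, a core subunit of complex I with 1 probe, was likewise near the bottom of the scale, at 4.98 to 8.49. Whether the low readings of NDUFA4 and NDUFS1 reflect the genes or their probes was not tested.

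In complex V, ATP5PF, the coupling factor in the stalk, read 21089 (siCtrl), 12464 (siPML), 14545 (vector) and 17196 (WDR4). The siPML array was the lowest, at -0.76 from siCtrl, and a probe below the filter gave -0.63. ATP5PD, another stalk subunit, read 14132, 9345, 10347 and 10610 (-0.60). ATP5PO, the stalk subunit that gives oligomycin sensitivity, had 3 probes, which differed by -0.54, -0.57 and -0.18. The c subunit is encoded by several genes, and these did not go together. ATP5MC1 differed by -0.63 on 1 probe and 0.082 on the other, ATP5MC3 by -0.47, and ATP5MC2 by 0.33. Of the 5 genes of the F1 head, ATP5F1A, ATP5F1C, ATP5F1D and ATP5F1E were below 0, with differences from -0.36 to -0.10. The brightest probe of ATP5F1B, the beta subunit, was at the limit of the scale on siCtrl, and its second probe, within the scale, read 23098 on siCtrl and 24316 on siPML, a difference of 0.074. ATP5IF1, the inhibitor of ATP hydrolysis, differed by -0.048.

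**Figure D5:**
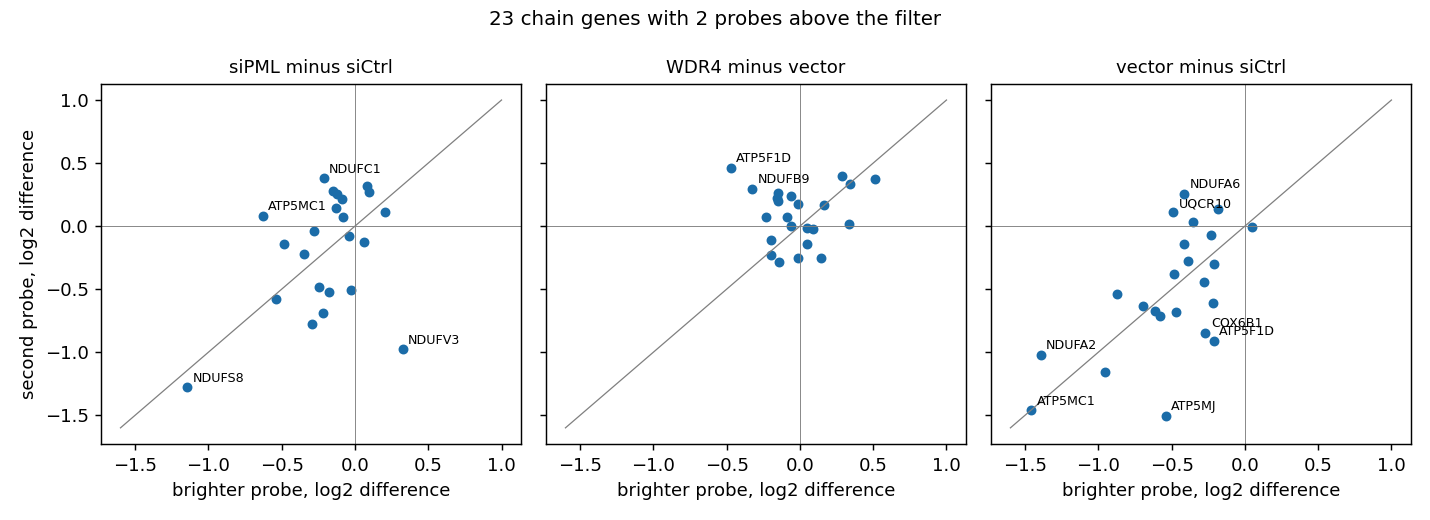
Log2 difference of the brighter probe (horizontal axis) against that of the second probe (vertical axis) for the 23 members with a pair of probes above the filter, with the line of equal values. NDUFS8 lies near the line in siPML minus siCtrl and ATP5MC1 in vector minus siCtrl, whereas NDUFV3 and ATP5MC1 lie off it in siPML minus siCtrl.

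The comparison of WDR4 with vector asks how the chain genes stood after WDR4 overexpression. Differences were small in every complex. Of the 73 kept members, 41 were above 0 and 32 below, where 56.3% of all genes kept were below 0, and the median was 0.049 against -0.043. When each array was centred on the median of all named genes the members' median turned to -0.030. The median of all genes kept fell to -0.12, so the members stayed 0.092 above it. Against siCtrl the members' median was -0.43 (all genes, 0.088). At least 1.5-fold higher were 3 members (all genes, 3.09%), and 0 were at least 1.5-fold lower (all genes, 3.34%). With centred arrays 1 member, COX7C, was at least 1.5-fold higher, as ATP5MC2 differed by 0.56 and NDUFA9 by 0.51, and without a filter 6 were. No member reached 2-fold, where 0.362% of all genes were at least 2-fold higher and 0.285% lower.

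The medians of WDR4 minus vector were 0.091 for complex I, 0.20 for complex II, 0.093 for complex III, -0.052 for complex IV and 0.041 for complex V, which turned when the arrays were centred. COX7C, a small subunit of complex IV, read 10668 on vector and 17044 on WDR4, a difference of 0.68, with 18548 on siCtrl and 18899 on siPML. ATP5MC2 read 12431 and 19296 (0.63), with 22282 and 28062 on siCtrl and siPML. NDUFA9 read 2873 and 4312 (0.59), with 6976 on siCtrl. In each of these 3 genes the vector array was the lowest of the 4, and WDR4 was still below siCtrl.

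Further members differed by less than 1.5-fold. ATP5F1A, the alpha subunit of the F1 head, read 212 on vector and 311 on WDR4 (0.55), close to the filter. NDUFS5 differed by 0.51 and NDUFB3 by 0.51, the latter with 0.37 on its second probe. On the lower side, ATP5F1D, the delta subunit, differed by -0.47, but its second probe gave 0.46. NDUFB9 differed by -0.33 with 0.30 on its second probe. Of the 23 members with a pair of probes above the filter, 14 had probes of opposite sign in this comparison, as had 701 of 1745 genes. SDHB differed by -0.26, SDHC by 0.33 and SDHD by 0.20.

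Genes that build or feed the chain were described from lists chosen by function. Of 49 assembly factors, 46 were kept. In siPML minus siCtrl their median was -0.14. At least 1.5-fold lower were 5 of the 46 (all genes, 12.9%), near the share of all genes. At least 1.5-fold higher was 1 (all genes, 10.1%), a smaller share than that of all genes. TMEM70, which acts in ATP synthase assembly, read 343 on siCtrl and 109 on siPML (-1.65), with 281 on vector and 301 on WDR4, so siPML alone was low. COX19, a factor of complex IV, read 350 and 758 (1.11), with 1130 on vector and 901 on WDR4, so siCtrl was the lowest and siPML lay below vector. ACAD9 (-0.90) and ECSIT (-0.80), both of complex I assembly, were lower. In WDR4 minus vector the median was -0.15, with 3 at least 1.5-fold lower (all genes, 3.34%) and 0 higher (all genes, 3.09%). The 3 were PET117 (-0.64), COA7 (-0.61) and COX11 (-0.59).

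Of the tricarboxylic acid cycle, which supplies NADH and succinate, 11 enzymes were kept, and 9 were below 0 in siPML minus siCtrl (all genes, 48.9%), with a median of -0.40. At least 1.5-fold lower were 4 of them (all genes, 12.9%). MDH2, the malate dehydrogenase, read 12010 on siCtrl and 5489 on siPML (-1.13), with 8464 on vector and 10337 on WDR4, and the isocitrate dehydrogenase subunits IDH3A and IDH3G differed by -0.86 and -0.85. SUCLG1 differed by -0.72. In WDR4 minus vector the median was -0.030, with 0 of 11 at least 1.5-fold different (all genes, 3.09% higher and 3.34% lower). Of the electron carriers and the enzymes of coenzyme Q synthesis, 13 were kept. In siPML minus siCtrl, COQ8A differed by 1.04, ETFB by -0.69 and PDSS2 by -0.67, and the median was -0.18. In WDR4 minus vector the median was -0.23, and none of the 13 was at least 1.5-fold different (all genes, 3.09% higher and 3.34% lower). In lists this short, such a count is near the share of all genes. Between the control arrays, most genes of these lists were also lower on vector than on siCtrl (all genes, 42.8%). Below 0 were 10 of 11 cycle enzymes (median -0.49), 11 of 13 carrier and coenzyme Q genes (-0.30) and 34 of 46 assembly factors (-0.26). The lower level on vector was therefore not particular to the chain genes. The regulators described at the end had a median of 0.066.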

How the data were processed

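The deposited table holds 1 linear intensity for each of 31741 probes on each of 4 arrays. Per the labels' protocols, total RNA was amplified and labelled with Cy5. No scanner, background correction or normalization is named there. The deposited values were read as linear intensities because they end near the scanner's limit, with 23 to 42 values below 0 per array. These were set to 0. The number of arrays limits the precision.

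Probes were named through the platform's annotation: 24658 had 1 symbol, 1002 several and 6081 none. Symbols were updated through RefSeq for 2177 probes, and 77 were unmatched. For 19 members the updated symbol is printed. A probe within 1% of the highest value of its array was counted as at the scanner's limit (4 kept members). Genes of the NDUFAF series and 2 genes that match by an old symbol alone (DMAC2, DMAC2L) were left out, as were 7 probes with several symbols.

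No test was run, as no group had a replicate. Named were kept members that differed 1.5-fold or more from their control, up to 4 members per complex and comparison with the largest difference, complex II, isoforms, and members whose probes disagree. Members named for vector minus siCtrl were chosen after their values were seen. The members and lists were chosen with earlier results of these data known. Alternatives were quantile normalization, centring, no filter, an upper quartile filter, the mean over probes, 16 added before log2, the other control array, removal of a running median along level, and omission of genes at that limit. The steps were tested on simulated data. Python 3.11.15, numpy 2.4.6, pandas 2.3.3 and matplotlib 3.10.9 were used.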

Additional observations from a re-analysis of the deposited data

How the results depend on the processing

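With the other control array, the median of the chain genes in siPML minus siCtrl turned to 0.29. That of complex I turned to 0.34, II to 0.0722, III to 0.26, IV to 0.19 and V to 0.21. At least 1.5-fold lower were 0 chain genes (all genes kept, 2321 of 9128), and higher were 18 (all genes kept, 1141 of 9128). ATP5MC1 turned to 0.83, COX5A to -0.26, NDUFA9 to 0.52 and NDUFB1 to 0.34. In WDR4 minus vector, the same choice turned the median of the chain genes to -0.43. It turned that of complex I to -0.54, II to -0.36, III to -0.49 and V to -0.42 and moved IV to -0.36. At least 1.5-fold lower were 22 chain genes (all genes kept, 1034 of 9128), and higher was 1 (all genes kept, 1807 of 9128). The same choice turned ATP5MC2 to -0.21, COX7C to -0.12 and NDUFA9 to -0.69. Centring turned the WDR4 median of chain genes to -0.0296 and of complex V to -0.0379, left 1 gene at least 1.5-fold higher, and moved the vector minus siCtrl median to -0.72, with 46 chain genes at least 1.5-fold lower in place of 26. Centring lowered the median of all kept genes in that pair from 0.099 to -0.15, and the chain genes stayed 0.57 below it. In WDR4 minus vector it lowered that median from -0.043 to -0.12, and the chain genes stayed 0.092 above it. Complex IV turned to 0.0575 and 0.18 without a filter and to 0.0653 and 0.0221 with the mean over probes, in siPML and WDR4 minus their controls. The mean over probes moved complex III on siPML to -0.48. On siPML, 1 gene was at least 1.5-fold higher with the upper quartile filter or the mean over probes, and on WDR4, 6 genes were without a filter. The cause was not tested. The remaining 124 values of medians and counts kept their direction, and moved by less than the spread between probes, or within 1.5 times for counts. That spread was for 1 probe, 0.27 on siPML and 0.22 on WDR4. It was larger than every WDR4 median, and than every siPML median except that of complex V. For these medians the rule therefore shows little beyond direction. No paired analysis was possible because each group has 1 array, and for the same reason no replicate could be left out.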

Other observations

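Of 14 listed regulators of chain gene transcription and of mitochondrial DNA, 12 were kept. Their median was 0.23 in siPML minus siCtrl, with 4 below 0 (all genes, 48.9%). PPARGC1A, the coactivator of mitochondrial biogenesis, read 402 (siCtrl), 119 (siPML), 947 (vector) and 628 (WDR4), so it was lowest on siPML (-1.75) and highest on vector. TFAM, which packages mitochondrial DNA and acts in its transcription, read 1227, 1901, 1333 and 898 in the same order of arrays (0.63 on siPML and -0.57 on WDR4). GABPB1 differed by -0.59 and its partner GABPA by 0.55 on siPML. In WDR4 minus vector, 9 of the 12 were below 0 (all genes, 56.3%), among them PPRC1 at -0.70 and PPARGC1A at -0.59.

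Hypoxia genes that act on mitochondria had a median of 0.28 in siPML minus siCtrl, with 1 of the 8 kept below 0 (all genes, 48.9%). BNIP3L and BNIP3, receptors for the removal of mitochondria, read 4419 and 2676 on siCtrl and 8999 and 5368 on siPML (1.03 and 1.00). PDK3, which shuts the entry of pyruvate into the tricarboxylic acid cycle, read 1854 (siCtrl), 1999 (siPML), 568 (vector) and 640 (WDR4). PDK1 read 1222, 1466, 543 and 503.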
